A study of Mus musculus with 9 samples.

Results

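The Glis3 peaks at divergent promoters were the peaks whose midpoint lay within 1 kb of the 5′ end of at least 1 plus-strand gene and of at least 1 minus-strand gene. They numbered 1363 of the 21254 peaks of the deposited list (6.41%), and they were 12.8% of the 10618 peaks within 1 kb of any 5′ end. The nearest gene on each strand gave 1250 distinct pairs. In all, 2520 genes had a 5′ end within 1 kb of these midpoints, including some that were not the nearest on their strand. The rule used positions and no expression value.

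Glis3 is a Krüppel-like zinc finger transcription factor that pancreatic beta cells need for insulin gene expression and for their development. A divergent promoter is a stretch of DNA from which one gene is read to the right and another to the left, so that a factor bound there lies next to both starts. Such promoters are known for housekeeping genes of DNA repair, mitochondria and RNA processing, and many drive a protein-coding gene on one side and a long non-coding RNA (lncRNA) on the other. The genes of a divergent pair can be transcribed together or separately.

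RNA was sequenced from islets of Pdx1-Cre;Glis3fl/fl mice at 4 weeks of age (labelled knockout, 3 libraries) and of Glis3fl/fl mice at 4 weeks (control, 4 libraries), 1 mouse per library by the design text. Both groups carried the floxed allele and only the labelled knockout carried Cre, driven by the promoter of Pdx1, a gene active in the early pancreas and in beta cells. With no group that carried Cre alone, the driver and the deletion cannot be told apart. Binding came from 1 chromatin immunoprecipitation (ChIP) library of islets of Glis3-eGFP mice at 8 weeks, made with a GFP antibody, without a replicate. The peaks therefore describe other mice at another age, and their reproducibility was not tested.

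The full 200 bases could be read for 337 of the 1363 peaks. Of these, the sequences of 7 peaks from gene pairs named below are shown. They were read from RefSeq promoter windows (GRCm38.p6, mm10 coordinates) and are written 5′ to 3′ on the plus strand, the strand of the first gene named. Capitals mark any of the motifs searched for below, on either strand. The first 3 belong to pairs whose genes were both higher or both lower in the labelled knockout.
Tmem176a/Tmem176b, chr6:48841202-48841401: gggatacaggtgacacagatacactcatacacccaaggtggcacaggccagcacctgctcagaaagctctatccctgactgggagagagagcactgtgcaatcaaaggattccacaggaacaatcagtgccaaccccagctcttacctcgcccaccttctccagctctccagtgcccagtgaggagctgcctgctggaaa
Acadsb/Ikzf5, chr7:131410421-131410620: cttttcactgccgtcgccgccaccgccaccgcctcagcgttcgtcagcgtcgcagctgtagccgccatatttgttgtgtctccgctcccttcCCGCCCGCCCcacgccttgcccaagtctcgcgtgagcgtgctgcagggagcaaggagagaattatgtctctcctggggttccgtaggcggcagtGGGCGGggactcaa
Rnf113a1/Ndufa1, chrX:37191040-37191239: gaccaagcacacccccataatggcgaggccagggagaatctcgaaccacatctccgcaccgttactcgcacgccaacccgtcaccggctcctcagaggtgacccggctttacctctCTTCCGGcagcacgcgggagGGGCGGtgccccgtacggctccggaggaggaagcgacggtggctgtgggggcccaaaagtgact
The next 3 belong to pairs in which 1 gene changed and its neighbour did not pass the test.
2310022A10Rik/Pld3, chr7:27553214-27553413: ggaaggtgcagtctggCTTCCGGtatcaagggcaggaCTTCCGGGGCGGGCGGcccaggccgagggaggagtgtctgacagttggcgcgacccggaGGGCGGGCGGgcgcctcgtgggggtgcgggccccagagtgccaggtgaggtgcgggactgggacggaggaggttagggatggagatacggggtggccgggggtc
H2-DMa/Brd2, chr17:34122638-34122837: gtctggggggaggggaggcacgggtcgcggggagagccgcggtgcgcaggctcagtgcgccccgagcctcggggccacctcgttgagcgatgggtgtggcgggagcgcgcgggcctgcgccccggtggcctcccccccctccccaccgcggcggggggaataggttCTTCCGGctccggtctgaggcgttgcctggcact
Npat/Atm, chr9:53536736-53536935: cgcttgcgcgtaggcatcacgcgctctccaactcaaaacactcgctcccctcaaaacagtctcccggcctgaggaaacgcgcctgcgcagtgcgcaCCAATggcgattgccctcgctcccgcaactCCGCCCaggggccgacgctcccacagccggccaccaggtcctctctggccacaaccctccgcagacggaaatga
The last belongs to the mitochondrial chaperonin pair Hspe1/Hspd1, a textbook divergent promoter, whose starts overlap by 95 bp in the coordinates used here.
Hspe1/Hspd1, chr1:55088067-55088266: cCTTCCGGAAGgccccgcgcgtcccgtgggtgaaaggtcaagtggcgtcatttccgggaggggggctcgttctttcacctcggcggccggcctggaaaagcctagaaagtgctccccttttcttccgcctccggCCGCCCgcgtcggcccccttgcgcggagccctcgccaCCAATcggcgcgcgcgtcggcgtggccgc
In the Acadsb peak the 5′ ends of Ikzf5 and Acadsb lay at bases 58 and 181, and GC boxes stood between them. The Hspe1 peak opened with a palindrome that holds the ETS motif on both strands, followed by a GC box and a CCAAT box. The Tmem176a peak held none of the motifs searched.

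The peaks sat close to the starts of both genes. The midpoint lay a median of 124 bp from the nearer 5′ end (interquartile range 53.5 to 225) and 306 bp from the farther one (180.5 to 528). The 200 bp of 586 peaks held at least 1 of the 5′ ends, and those of 108 peaks held both. In 969 of the 1250 pairs (77.5%) the genes stood head to head with no overlap, with a median of 161 bp between the 5′ ends (80 to 304, at most 1563). In the other 281 pairs the starts overlapped, by a median of 307 bp (198 to 625), so these were antisense at their 5′ ends rather than divergent in the strict sense.

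**Figure D1:**
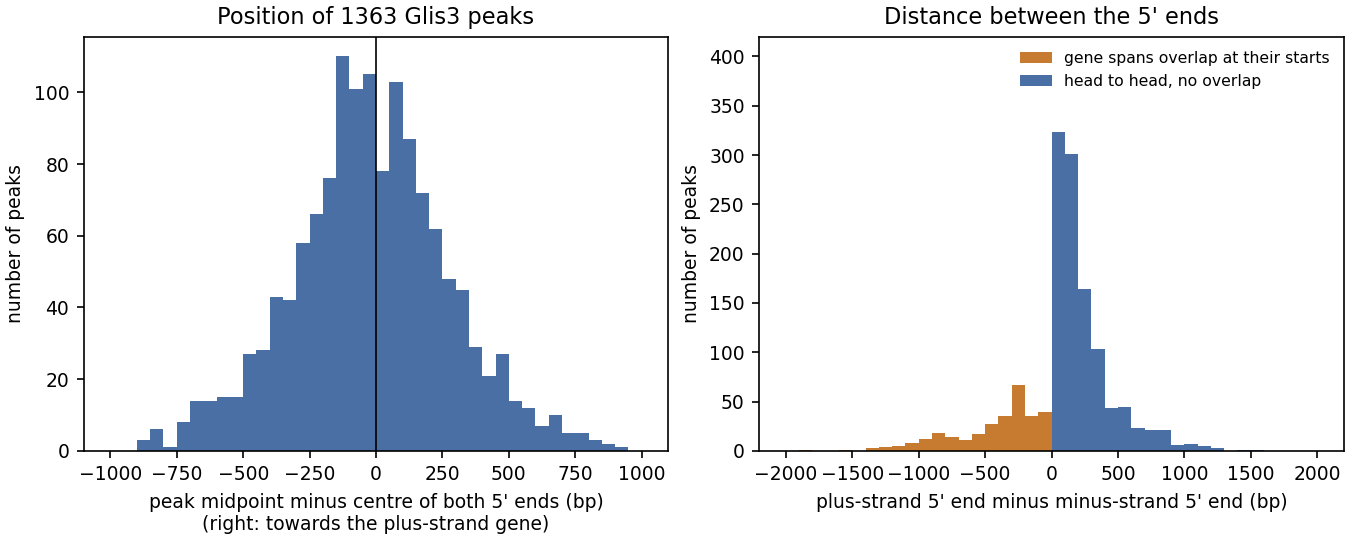
Left, number of peaks by distance of the peak midpoint from the centre between both 5′ ends, in bp. Right, number of peaks by the distance between the 5′ ends, with pairs whose starts overlap in orange and head-to-head pairs in blue. Of the 1363 peaks, 389 lie within 100 bp of the centre, and most pairs are head to head with a short gap.

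By position, 280 peak midpoints (20.5%) fell between the 5′ ends, 355 (26.0%) inside the plus-strand gene, 431 (31.6%) inside the minus-strand gene and 297 (21.8%) at overlapping starts. A single peak marked 1137 pairs and 2 peaks marked 113. In 27 peaks more than 1 gene of a strand was in range and the nearest was used. Of the pairs, 856 joined 2 protein-coding genes and 356 joined a coding gene and an lncRNA. A further 4 joined 2 lncRNAs, and 34 held a gene that was neither.

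Most divergent promoters of the gene table were occupied. The table held 1752 pairs with 5′ ends within 2 kb of each other, of which 1246 (71.1%) had a Glis3 peak that met the rule, 354 had no peak at either 5′ end and 152 had another arrangement. Among genes with enough counts to be tested, 2442 of 2813 genes in a divergent pair (86.8%) had a peak within 1 kb, against 7905 of 11716 genes in no such pair (67.5%). This difference is given without a test, since the genes of a pair share their peak.

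The DNA around these starts was rich in G and C. In RefSeq windows of 300 bases at each start, the median GC content was 63.7% over 2008 genes at divergent peaks, against 62.3% over 6399 genes at peaks with starts of 1 strand alone and 49.3% over 8945 genes with no peak. The median number of CpG dinucleotides per window was 25, against 22 and 4. The ETS motif CCGGAAG, bound by GABP and other ETS factors, stood in 28.3% of windows at divergent peaks, against 17.5% at peaks of 1 strand, 4.38% without a peak and 12% of all windows. The YY1 motif AAGATGGCG stood in 4.93% of windows at divergent peaks, against 2.94% at peaks of 1 strand, 0.626% without a peak and 1.98% of all. Windows of the 2 genes of a pair often overlap, so they are not independent.

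The other motifs were counted in the same windows. The GC box GGGCGG was in 70.3% of windows at divergent peaks, against 72.1% at peaks of 1 strand and 46.7% of all. The NRF1 motif GCGCATGCG was in 4.18%, against 4.33% at peaks of 1 strand and 2.46% of all. The CRE motif TGACGTCA was in 4.83%, against 3.67% and 2.43%, and the E-box CACGTG in 11.0%, against 11.2% and 8.24%. The CCAAT box was in 40.0%, against 37.8% and 39.2%, and the RFX motif GTTGCCA in 4.33%, against 4.16% and 4.31%. TATAAA was in 4.23%, against 6.28% and 13.2%. The letters TGGGGGGT, taken as a core of the Glis site, were in 0.896%, against 1.53% and 1.45%, and in 1.52% without a peak. Among the 337 peaks whose 200 bases could be read in full, 1 held these letters (0.297%) and 94 held the ETS motif (27.9%). All motifs were searched on both strands as exact letters, and the GC box can overlap the ETS motif. A match is a description of the letters, not a bound site.

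Total counts per library ran from 12099365 to 22578480 in the labelled knockout and from 18297697 to 48054551 in controls. Glis3 itself had no lower count in the labelled knockout libraries, with 52.1, 52.7 and 57.8 CPM against 39.5, 46.8, 31.2 and 33.6 CPM in controls, and these values did not overlap. Its log2 fold change was 0.52 (SE 0.14, edgeR adjusted p = 0.0257), and it lost its call without labelled knockout 1 (0.0501), labelled knockout 3 (0.117), control 3 (0.0945) or control 4 (0.085), nor with replicate number as a block (0.0505). Gene counts do not resolve the floxed exons, so the count does not check the deletion. Beta cell markers summed to 188000 to 297000 CPM in the labelled knockout against 327000 to 548000 CPM in controls, with 5 of 7 lower and 1 higher by the test. Acinar markers summed to 2000 to 11500 CPM against 618 to 4130 CPM in controls, with 0 of 8 tested called by edgeR, DESeq2 or limma-voom and 0 at an unadjusted p under 0.05, and duct markers to 453 to 700 CPM against 21 to 47.5 CPM, with 1 of 4 higher. Xist stood at 262 and 235 CPM in labelled knockouts 1 and 2 and at 0.221 CPM in labelled knockout 3, against 270 and 241 CPM in controls 1 and 2 and under 1 CPM in controls 3 and 4. The part of these markers in the results below was not tested, except that acinar markers and Xist were each added as a covariate. In bulk islets, fewer cells of a type and less RNA per cell cannot be told apart.

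Most genes at divergent Glis3 peaks did not pass the test between the groups. Of the 2520 genes, 2315 had enough counts to be tested, and 74 of these (3.20%) were lower and 142 (6.13%) higher in the labelled knockout than in controls by edgeR's quasi-likelihood test at an adjusted p under 0.05. Over all 14529 tested genes 5.25% were lower and 8.73% higher. The median log2 fold change was 0.009 over the genes at divergent peaks and 0.007 over all. Changes of at least 2-fold were called for 10 members that fell (0.432%) and 43 that rose (1.86%), against 1.5% and 4.11% of all tested genes.

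With library size alone as scaling, the median log2 fold change of all genes was 0.18. The members' split was then 21 lower and 241 higher and that of all genes 324 and 1854. With the acinar markers as a covariate the members' counts were 37 and 91. With Xist as a covariate, added after seeing the data, they were 88 and 190. Without control 2 they were 48 and 94.

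The same shares were counted in other groups of genes. Genes at peaks of 1 strand alone were called in 14.8% of 8032 tested, and genes with no peak in 14.9% of 4182. Genes of divergent pairs with no peak were called in 10.3% of 281 tested, and genes at divergent peaks in 9.33%. Over all tested genes the share was 14.0%. These differences were not tested. Within the divergent peaks the share called was 8.85% for starts up to 100 bp from the midpoint, 8.86% at 101 to 250 bp, 9.84% at 251 to 500 bp and 11.2% at 501 to 1000 bp. Protein-coding genes were called in 9.61% of 2040 and lncRNAs in 7.31% of 260.

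Joint change of both genes of a pair was rare. Both genes were tested in 1069 of the 1250 pairs. In 885 (82.8%) neither was called, and in 167 (15.6%) exactly 1 was, with 109 higher and 58 lower. The background for exactly 1 call, over all 1274 divergent pairs with both genes tested, was 16.4%. Both genes were called in the same direction in 14 pairs (1.31%), 10 higher and 4 lower, against a background of 1.26%. They were called in opposite directions in 3 pairs, against a background of 0.235%. These shares lie near the background, which is made up largely of the same pairs.

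**Figure D2:**
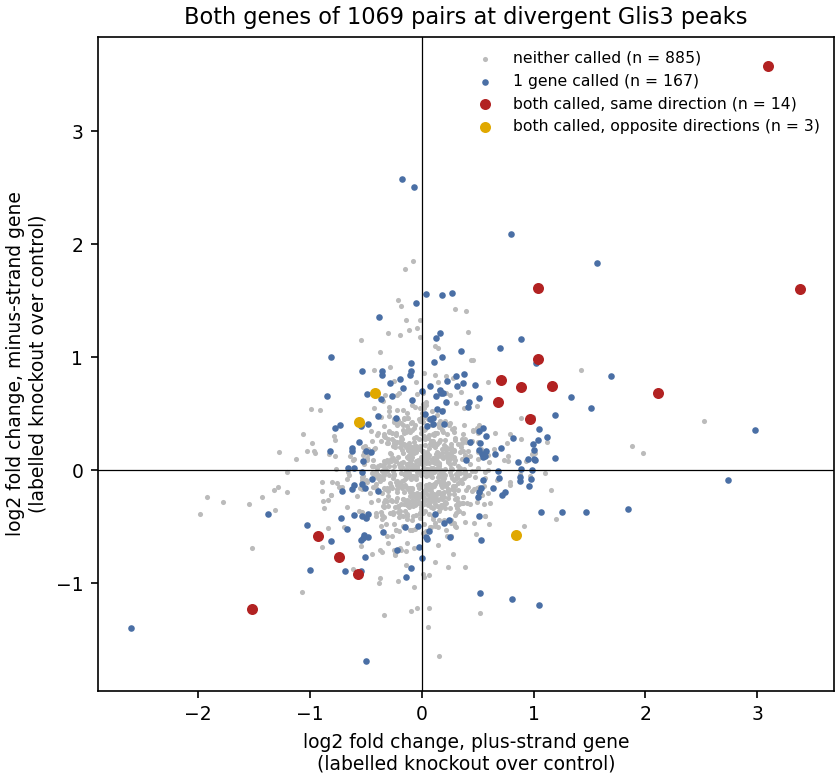
Log2 fold change, labelled knockout over control, of the plus-strand gene (x axis) and the minus-strand gene (y axis) for 1069 pairs at divergent Glis3 peaks. Most points lie near the axes, and red points mark the 14 pairs called in the same direction and yellow points the 3 called in opposite directions.

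The partners of called genes varied widely. The partners of 132 higher genes had a median log2 fold change of 0.14 (quartiles -0.097 and 0.389), and 20 of them were higher (15.2%) and 3 lower (2.27%). The partners of 69 lower genes had a median of -0.138 (quartiles -0.573 and 0.168), with 8 lower (11.6%) and 3 higher (4.35%). Each pair was counted from both sides. The 20 higher partners are thus the 10 pairs with both genes higher, and the 8 lower ones the 4 pairs with both lower. The 3 partners of the other direction in each group are the same 3 opposite pairs. The partners of 1937 uncalled genes had a median of 0.008, with 5.63% higher and 2.99% lower. These differences were not tested. Across the 1069 pairs the genes had the same sign in 573 (53.6%), with Pearson r = 0.22 between their fold changes, where each pair shares its libraries and its promoter.

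Joint calls were counted by the arrangement of the starts. Among 846 head-to-head pairs, 6 were called in the same direction (0.709%) and 1 in opposite directions, with r = 0.15. Among 223 pairs with overlapping starts, 8 were called in the same direction (3.59%) and 2 in opposite directions, with r = 0.40. Over all divergent pairs 1.26% were called in the same direction, and the difference between arrangements was not tested. Pairs of 2 coding genes had 9 same-direction calls in 803, and coding and lncRNA pairs had 5 in 252. Whether reads were counted by strand is not stated in the labels or the file, so reads of overlapping genes on opposite strands cannot be told apart. Of 100 divergent pairs with no peak, 1 was called in the same direction and 19 had exactly 1 call.

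The largest joint rise was at Kcnmb4, a regulatory subunit of calcium-activated BK potassium channels, and its antisense lncRNA Kcnmb4os2. Kcnmb4 had 15.6, 10.7 and 11.5 CPM in the labelled knockout, against 0.766, 1.13, 1.03 and 1.29 CPM in controls, a log2 fold change of 3.57 (SE 0.28, edgeR adjusted p = 2.3e-06). Kcnmb4os2 had 2.67, 1.68 and 2.39 CPM against 0.0348, 0.331, 0.183 and 0.479 CPM, a log2 fold change of 3.10 (SE 0.72, adjusted p = 0.0103). Neither gene's groups overlapped. The spans overlap by 360 bp, and 2 peaks marked the pair, 1 of them at chr10:116473223-116473422.

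Tmem176a and Tmem176b, paralogous membrane proteins read from a head-to-head promoter with a gap of 109 bp, were both higher. Tmem176a had 222, 230 and 216 CPM in the labelled knockout, against 84.9, 82.5, 109 and 121 CPM in controls (log2 fold change 1.17, SE 0.14, edgeR adjusted p = 9.52e-05). Tmem176b had 301, 339 and 320 CPM against 158, 151, 225 and 233 CPM (0.74, SE 0.16, adjusted p = 0.00717). The peak at chr6:48841202-48841401 lay 73 bp inside Tmem176b. The ratio of Tmem176a to Tmem176b counts changed by 0.42 (SE 0.13, limma adjusted p = 0.0712, and 0.0289 with replicate number as a block). Among the controls, libraries 3 and 4 stood above libraries 1 and 2 for both genes, and no control reached a labelled knockout library. Other named genes, among them Spcs1, Ndufa1, Dad1 and Ssr4, had the same order of controls, while Sp3 and Tmtc2 had the reverse. Controls 1 and 2 also differed from controls 3 and 4 in Xist, and the source of the split was not tested.

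Gas2, which binds actin and microtubules, and Fancf, a subunit of the Fanconi anaemia core complex that repairs DNA crosslinks, were both lower. Gas2 had 4.16, 8.73 and 11.6 CPM in the labelled knockout, against 22.7, 21.2, 23.6 and 27.3 CPM in controls (log2 fold change -1.52, SE 0.26, edgeR adjusted p = 0.00151). Fancf had 3.86, 4.88 and 4.83 CPM against 6.76, 8.83, 14.7 and 12.4 CPM (-1.22, SE 0.28, adjusted p = 0.0103). The groups did not overlap for either gene. Their starts overlap by 252 bp, and 2 peaks marked the pair, 1 of them at chr7:51861531-51861730.

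Glt8d1, a glycosyltransferase family gene, and Spcs1, a subunit of the signal peptidase that trims secreted proteins at the endoplasmic reticulum (ER), were both higher. Glt8d1 had 130, 121 and 120 CPM in the labelled knockout, against 62.6, 70.4, 81.6 and 87.7 CPM in controls (log2 fold change 0.71, SE 0.13, edgeR adjusted p = 0.00202). Spcs1 had 259, 254 and 294 CPM against 115, 130, 180 and 191 CPM (0.80, SE 0.17, adjusted p = 0.00583). The groups were separate for both. The peak lay at chr14:31001417-31001616, inside the 273 bp shared by the spans.

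Acadsb, a mitochondrial acyl-CoA dehydrogenase of isoleucine breakdown, and Ikzf5, an Ikaros family zinc finger factor, were both lower from a head-to-head promoter. Acadsb had 32.3, 24.8 and 45.8 CPM in the labelled knockout, against 56.9, 55.7, 58.8 and 58 CPM in controls (log2 fold change -0.74, SE 0.17, edgeR adjusted p = 0.00986). Ikzf5 had 11.3, 7.56 and 12 CPM against 18.1, 16.3, 17.1 and 18.3 CPM (-0.77, SE 0.19, adjusted p = 0.0148). Labelled knockout 2 was the lowest library for both genes. Ikzf5 did not pass with library size alone (adjusted p = 0.0798) or with acinar markers as a covariate (0.0584).

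**Figure D3:**
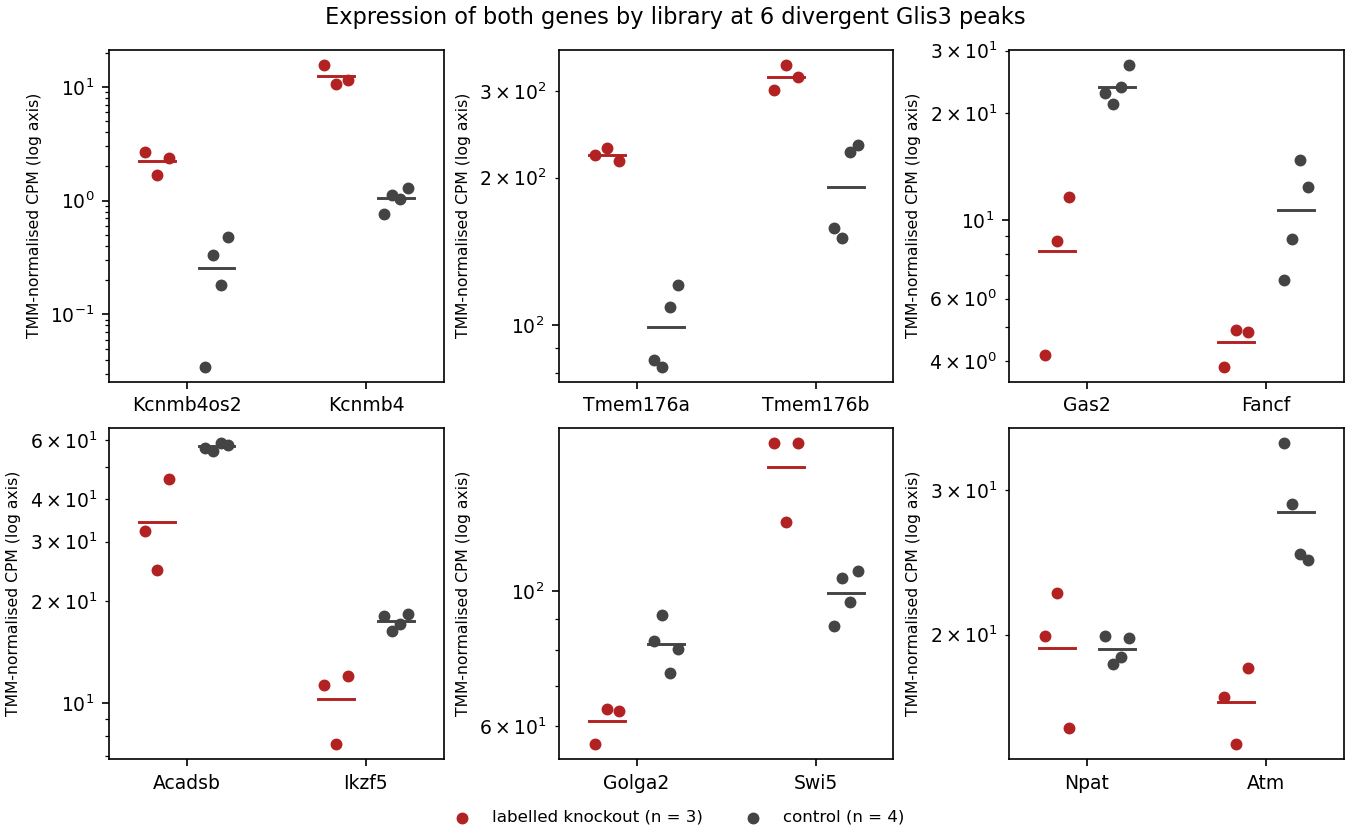
TMM-normalised CPM (log axis) of both genes of 6 pairs at divergent Glis3 peaks, in 3 labelled knockout libraries (red, left of each gene) and 4 control libraries (grey), with bars at the group means. Both genes shift in the same direction in 4 pairs, in opposite directions for Golga2 and Swi5, and for Npat and Atm the groups overlap in Npat alone.

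Rnf152, a lysosomal ubiquitin ligase, had 7.87, 9.37 and 8.55 CPM in the labelled knockout, against 2.68, 2.92, 3.77 and 2.01 CPM in controls (log2 fold change 1.60, SE 0.28, edgeR adjusted p = 0.00144). Its antisense lncRNA Gm17634 had 0.891, 1.9 and 1.51 CPM against 0.174, 0.175, 0 and 0.144 CPM (3.39, SE 0.81, adjusted p = 0.0125, and 0.0662 with replicate number as a block). Both were separate between groups, at very low counts for Gm17634, and their starts overlap by 703 bp. This pair and the 5 before kept both calls in each fit that left out 1 library. The pairs of Glt8d1, Tmem176a, Gas2 and Kcnmb4 kept both calls in all 17 alternative fits.

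The other same-direction pairs lost a call in some of these fits. Ndufa1, a subunit of respiratory complex I, had 261, 284 and 343 CPM in the labelled knockout, against 65.8, 66.0, 126 and 130 CPM in controls (log2 fold change 1.61, SE 0.25, edgeR adjusted p = 0.00119). Its neighbour Rnf113a1, a RING protein of the spliceosome, had 11.4, 6.82 and 6.47 CPM against 3.83, 3.79, 3.77 and 4.55 CPM (1.04, SE 0.27, adjusted p = 0.0203). Both were higher with no overlap of the groups. Rnf113a1 did not pass without control 2 (0.0601), control 3 (0.053) or labelled knockout 1 (0.1). The spans overlap by 16 bp on chromosome X, in the sequence shown above.

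In 5 further pairs the log2 fold changes had SEs of 0.12 to 0.24 and edgeR adjusted p from 0.000274 to 0.049. Gstm5, a glutathione transferase, rose by 1.04 on the log2 scale, and the lncRNA 4933431E20Rik by 0.98, which did not pass without labelled knockout 1 (adjusted p = 0.0775). Grpel2, an exchange factor of the mitochondrial Hsp70, fell by 0.58 together with the lncRNA 1500015A07Rik (-0.93); Grpel2 did not pass without control 2 (0.0611). Anxa5, the phosphatidylserine-binding annexin, rose by 0.45 and 1810062G17Rik by 0.97, and Anxa5 did not pass without controls 1, 2 or 3 or labelled knockouts 1 or 3 (adjusted p up to 0.109). Armc5 fell by 0.57 and 9130023H24Rik by 0.91, and Armc5 did not pass without control 3 or labelled knockouts 1 or 3 (up to 0.0887). The starts overlap by 674 bp in this pair and by 359 bp in that of Gstm5. Siae, a sialic acid esterase, rose by 0.69 and Spa17 by 0.61, although Spa17 overlapped between groups and did not pass without controls 1, 2 or 3 or labelled knockouts 1 or 3 (up to 0.159).

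Tmtc2, an ER mannosyltransferase, had 22.6, 18.7 and 18.6 CPM in the labelled knockout, against 15.2, 14.6, 9.74 and 9.81 CPM in controls (log2 fold change 0.69, SE 0.20, edgeR adjusted p = 0.0329). Its lncRNA neighbour Gm15663 had 26.4, 27.5 and 23.8 CPM against 6.83, 6.44, 3.84 and 6.65 CPM (2.11, SE 0.20, adjusted p = 1e-05). Both rose, by unequal amounts: the log2 ratio of Gm15663 to Tmtc2 counts averaged 0.38 ± 0.17 in the labelled knockout (SD, n = 3) and -1.06 ± 0.34 in controls (SD, n = 4), limma adjusted p = 0.00332. Tmtc2 did not pass without controls 3 or 4 or labelled knockouts 1 or 3 (adjusted p up to 0.11), nor with replicate number as a block (0.0544).

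Opposite changes were called at 3 promoters. Golga2, the Golgi matrix protein GM130, had 56.1, 64.2 and 63.6 CPM in the labelled knockout, against 82.9, 91.5, 73.5 and 80.3 CPM in controls (log2 fold change -0.42, SE 0.12, edgeR adjusted p = 0.0264). Swi5, a recombination repair factor, had 175, 130 and 175 CPM against 87.6, 105, 96.0 and 108 CPM (0.69, SE 0.14, adjusted p = 0.00377). The groups were separate for both, across a gap of 184 bp with the peak, chr2:32287984-32288183, centred 14 bp from Swi5. Golga2 did not pass without control 1 (0.051), control 2 (0.0913) or labelled knockout 1 (0.1), nor with library size alone (0.354).

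Sp3, a factor that binds GC boxes, fell by 0.57 while its antisense lncRNA Sp3os rose by 0.85, with starts that overlap by 1014 bp. Sp3 had 31.0, 24.8 and 31.8 CPM in the labelled knockout, against 52.8, 46.9, 39.3 and 34.7 CPM in controls, and Sp3os had 12.5, 8.55 and 12.4 CPM against 5.40, 5.93, 6.82 and 6.65 CPM. Neither overlapped between groups. Sp3 did not pass without controls 1 or 2 or labelled knockout 2 (up to 0.0921), and Sp3os not without controls 1 or 2 or labelled knockouts 1 or 3 (up to 0.0828). Surf1, an assembly factor of respiratory complex IV, had 38.3, 43.4 and 39.9 CPM against 29.6, 26.9, 31.6 and 32.7 CPM and rose by 0.43. Surf2 had 10.1, 9.89 and 13.7 CPM against 17.2, 16.9, 16.0 and 16.5 CPM and fell by 0.56. The starts of Surf1 and Surf2 overlap by 109 bp. Among the fits that left out 1 library, Surf2 passed only without labelled knockout 3. It did not pass with replicate number as a block (0.0797), and Surf1 did not pass without controls 1, 2 or 3 or labelled knockouts 2 or 3 (up to 0.105). No opposite pair kept both calls in all fits that left out 1 library.

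Single-gene changes included several of the largest. Flcn, a folliculin protein of mTORC1 signalling, had 24.1, 26.1 and 30.1 CPM in the labelled knockout, against 58.3, 55.7, 74.2 and 56.9 CPM in controls (log2 fold change -1.19, SE 0.14, edgeR adjusted p = 5.68e-05). Its lncRNA neighbour Gm16062 had 2, 0.778 and 1.42 CPM against 0.592, 0.661, 0.913 and 0.526 CPM, with overlap (1.05, SE 0.61, adjusted p = 0.285). Control 3 was the highest library for Flcn, and no control came near the labelled knockout. Ltbp2, an extracellular matrix protein, had 1.26, 1.12 and 1.73 CPM against 5.89, 3.54, 3.77 and 4.55 CPM (-1.69, SE 0.37, adjusted p = 0.00744), beside the lncRNA D030025P21Rik, which was under 1 CPM in all libraries.

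Ncapg, a condensin subunit of mitotic chromosomes, had 0, 0.173 and 0.664 CPM in the labelled knockout, against 1.53, 2.24, 2.01 and 1.53 CPM in controls (log2 fold change -2.60, SE 0.80, edgeR adjusted p = 0.045). It passed only in the fit without labelled knockout 3 among those that left out 1 library, and rested on 0, 4 and 15 counts in the labelled knockout. Its lncRNA neighbour 1600023N17Rik was not called (-1.39, SE 0.91, adjusted p = 0.348). The lncRNA Cahm had 0.594, 1.81 and 2.48 CPM against 4.32, 4.30, 4.02 and 4.69 CPM (-1.38, SE 0.42, adjusted p = 0.046, and 0.0615 with replicate number as a block). It too passed only without labelled knockout 3, and its neighbour Qk, an RNA-binding protein, had a log2 fold change of -0.39 (adjusted p = 0.172).

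Spred3, an inhibitor of Ras signalling, had 35.6, 44.3 and 23.4 CPM in the labelled knockout, against 7.18, 7.60, 8.95 and 8.66 CPM in controls (log2 fold change 2.09, SE 0.20, edgeR adjusted p = 1.15e-05). Its neighbour Ggn, a gene of sperm development, lay 1563 bp away, the widest gap of the head-to-head pairs, and had a log2 fold change of 0.80 (adjusted p = 0.115). Klhl29, a Kelch-like protein, had 6.01, 5.23 and 5.93 CPM against 1.43, 1.65, 2.56 and 0.814 CPM (1.83, SE 0.38, adjusted p = 0.00536), beside the lncRNA 2810032G03Rik (1.57, SE 0.89, adjusted p = 0.276). Myl4, a myosin light chain of heart atria, had 2.30, 3.24 and 3.59 CPM against 0.906, 0.525, 0 and 0.287 CPM (2.74, SE 0.73, adjusted p = 0.0216). Myl4 did not pass without control 2 (0.0502), control 4 (0.0602) or labelled knockout 3 (0.0808), nor with the block (0.0589), while Cdc27, the subunit of the anaphase-promoting complex beside it, stood at -0.09.

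The balance of the genes of a pair, their log2 ratio of counts within a library, was tested with limma over all 1274 divergent pairs. It changed in 51 of the 1069 pairs at peaks (4.77%), against 5.34% of all pairs. That background is made up largely of the same pairs. Among the other 205 pairs the balance changed in 17, and the difference was not tested. In 41 of the 51 exactly 1 gene was called, in 3 both were called in opposite directions, in 1 both in the same direction and in 6 neither. The count depended on single libraries, with 33 without control 1, 22 without control 2, 30 without control 3 and 22 without labelled knockout 1. With replicate number as a block it was 127.

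**Figure D4:**
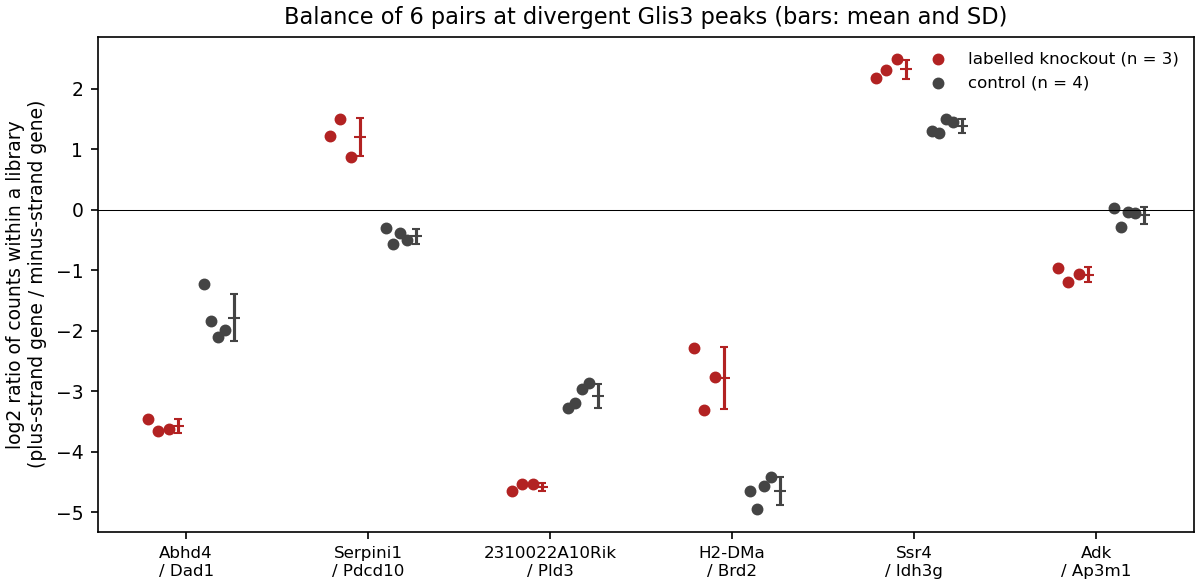
Log2 ratio of the plus-strand gene's counts to the minus-strand gene's counts within each library for 6 pairs at divergent Glis3 peaks, in 3 labelled knockout libraries (red, left) and 4 controls (grey), with mean and SD beside the points. The groups do not overlap in any of the 6 pairs, and the shifts run in both directions.

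At Abhd4/Dad1 the ratio was -3.45, -3.65 and -3.62 in the labelled knockout, against -1.23, -1.83, -2.10 and -1.98 in controls, a change of -1.79 (SE 0.20, limma adjusted p = 0.000319). Dad1, a subunit of the oligosaccharyltransferase that glycosylates proteins in the ER, had 392, 497 and 456 CPM against 107, 146, 206 and 243 CPM. It rose by 1.36 on the log2 scale (SE 0.23, edgeR adjusted p = 0.00177), while Abhd4, a phospholipid hydrolase, had a log2 fold change of -0.38 (adjusted p = 0.0912). The midpoint of the peak, chr14:54253826-54254025, lay 4 bp from the Dad1 start.

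At the promoter of Pld3, a lysosomal exonuclease, whose sequence with its GC boxes and ETS motifs is shown above, the gene had 538, 454 and 412 CPM in the labelled knockout, against 158, 155, 164 and 160 CPM in controls (log2 fold change 1.56, SE 0.12, edgeR adjusted p = 2.21e-06). Its neighbour 2310022A10Rik, 72 bp away, had 21.5, 19.5 and 17.7 CPM against 16.3, 16.9, 21.1 and 22 CPM (0.04, SE 0.16). The groups were far apart for Pld3 and overlapped for 2310022A10Rik. The ratio changed by -1.50 (SE 0.19, limma adjusted p = 0.000494).

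H2-DMa, a chain of the complex that loads peptides onto MHC class II, had 23.5, 18.1 and 20.2 CPM in the labelled knockout, against 7.98, 6.42, 7.85 and 7.51 CPM in controls (log2 fold change 1.47, SE 0.17, edgeR adjusted p = 6.62e-05). Brd2, a bromodomain protein that reads acetylated histones, had 115, 180 and 137 CPM against 200, 199, 187 and 160 CPM, with overlap (-0.37, SE 0.15, adjusted p = 0.129, 0.0356 with replicate number as a block and 0.0236 without labelled knockout 2). The ratio changed by 1.86 (SE 0.26, limma adjusted p = 0.000933). The peak midpoint stood between the starts, 95 bp from H2-DMa and 130 bp from Brd2.

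Serpini1, the protease inhibitor neuroserpin, had 65.9, 48.1 and 47.4 CPM in the labelled knockout, against 26.6, 19.0, 21.3 and 23.3 CPM in controls (log2 fold change 1.25, SE 0.16, edgeR adjusted p = 9.91e-05). Pdcd10, an adaptor protein 681 bp away, had 28.2, 17.0 and 25.7 CPM against 32.7, 28.3, 27.8 and 33.1 CPM (-0.37, SE 0.17, adjusted p = 0.177). The ratio changed by 1.64 (SE 0.19, limma adjusted p = 0.000319). Here the higher gene was the one farther from the peak midpoint, at 717 bp against 36 bp for Pdcd10.

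Adk, adenosine kinase, had 44.1, 41.0 and 43.3 CPM in the labelled knockout, against 76.8, 64.1, 79.6 and 82.0 CPM in controls (log2 fold change -0.82, SE 0.12, edgeR adjusted p = 0.000388). Ap3m1, an adaptor subunit of lysosomal sorting, had a log2 fold change of 0.17 (adjusted p = 0.32), and the ratio changed by -0.99 (SE 0.15, limma adjusted p = 0.0018). Ssr4, a subunit of the ER translocon, had 578, 620 and 670 CPM against 242, 251, 359 and 379 CPM (1.02, SE 0.17, adjusted p = 0.000918). Idh3g, a subunit of a citric acid cycle dehydrogenase 131 bp away, overlapped between groups (0.09, SE 0.13). The ratio of Ssr4 to Idh3g changed by 0.94 (SE 0.14, limma adjusted p = 0.00112).

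Nicastrin, Ncstn, a subunit of gamma-secretase, was higher beside the abundant gene Copa, which codes for a coat protein of Golgi vesicles. Ncstn had 241, 237 and 223 CPM in the labelled knockout, against 124, 120, 116 and 121 CPM in controls (log2 fold change 0.96, SE 0.11, edgeR adjusted p = 4.36e-05). Copa had 421, 495 and 472 CPM against 328, 385, 512 and 488 CPM, with overlap (0.11, SE 0.16). The ratio changed by -0.82 (SE 0.17, limma adjusted p = 0.013), but not without labelled knockout 1 (0.0754). The spans overlap by 220 bp at the peak chr1:172082802-172083001.

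Both abundant ER chaperones at these promoters rose. Of 24 genes listed for protein folding and ER stress, 4 stood at a divergent peak, and 2 of these were higher, against 8 higher and 1 lower of all 24. Over all tested genes 8.73% were higher, and over those at divergent peaks 6.13%. The other 20 listed genes stood at peaks of 1 strand and held the remaining rises, so the rise was not particular to divergent promoters. Pdia3, a disulphide isomerase, had 1722, 1361 and 1706 CPM in the labelled knockout, against 783, 895, 889 and 887 CPM in controls (log2 fold change 0.89, SE 0.13, edgeR adjusted p = 0.000317). Hsp90b1, the ER form of Hsp90, had 1463, 1572 and 1637 CPM against 793, 913, 979 and 969 CPM (0.77, SE 0.12, adjusted p = 0.000711). The groups did not overlap for either. Their neighbours, the sperm channel gene Catsper2 (1.17, SE 0.44, adjusted p = 0.0988) and Ttc41 (0.37, SE 0.22, adjusted p = 0.308), did not pass. The listed genes that did not pass were Creld2 and Dnajb9.

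Housekeeping lists were counted at these promoters beside the 14.0% of all tested genes that were called. Of 54 genes of DNA repair and replication, 23 stood at a divergent peak, and 2 were lower (Atm, Fancf), 1 higher (Msh3) and 20 not called (13.0% called), with a median log2 fold change of 0.069. Msh3, of mismatch repair, did not pass without controls 1, 2 or 3 or labelled knockouts 1 or 3 (edgeR adjusted p up to 0.0888). Of 79 genes of the mitochondrial ribosome and chaperones, 30 did, and 2 were higher, 0 lower and 28 not called (6.67% called, median 0.173). All 24 genes of splicing and RNA processing at such peaks (of 61) and all 10 cilium genes (of 53) were not called by edgeR, with medians of 0.016 and -0.227. At an unadjusted p under 0.05 there were 2 and 1, and DESeq2 and limma-voom called 0 of either. Over all tested genes the median was 0.007.

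Mrps7, a small-subunit protein of the mitochondrial ribosome, rose by 0.44 (SE 0.12, edgeR adjusted p = 0.0321), and Mrpl21, of the large subunit, by 0.51 (SE 0.15, adjusted p = 0.0415). Neither passed in a fit that left out any 1 of the 4 controls or labelled knockouts 2 or 3 (adjusted p up to 0.101 for Mrps7 and 0.127 for Mrpl21). With replicate number as a block they stood at 0.0552 and 0.0542. The neighbours, Gga3 of Golgi sorting (0.25) and the helicase Ighmbp2 (-0.19), were not called.

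Of 38 genes of textbook divergent pairs, 26 stood at a Glis3 peak here, with 2 lower, 4 higher and 20 not called. This share called of 23.1% stood beside 14.0% of all tested genes and 9.33% of tested genes at divergent peaks, and the difference was not tested. At the Npat/Atm promoter, Atm, the kinase that signals DNA breaks, had 16.8, 14.7 and 18.2 CPM in the labelled knockout, against 34.3, 28.9, 25.1 and 24.7 CPM in controls (log2 fold change -0.77, SE 0.16, edgeR adjusted p = 0.00543, and 0.0558 with library size alone). Npat, which drives histone gene transcription, had 19.9, 22.5 and 15.4 CPM against 19.9, 18.4, 18.8 and 19.8 CPM, with overlap (0.00, SE 0.16). The ratio of Npat to Atm changed by 0.75 (SE 0.23, limma adjusted p = 0.076), and by the fit with replicate number as a block the adjusted p was 0.0105.

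Ranbp1, a cofactor of the Ran GTPase in nuclear transport, had 56.8, 67.7 and 55.7 CPM in the labelled knockout, against 37.7, 41.4, 47.2 and 43.7 CPM in controls. Its log2 fold change was 0.50 (SE 0.12, edgeR adjusted p = 0.0138), and 0.058 was the adjusted p without labelled knockout 2. Trmt2a, a tRNA methyltransferase 189 bp away, had a log2 fold change of 0.03. Hspe1, the co-chaperonin, had 58.0, 67.6 and 79.2 CPM against 36.2, 44.6, 60.5 and 68.8 CPM, with overlap (0.38, SE 0.19, adjusted p = 0.224, and 0.00872 with replicate number as a block). Hspd1, the chaperonin, had 75, 71.7 and 78.3 CPM against 75, 89.8, 72.4 and 76.3 CPM (-0.07, SE 0.11). The ratio of Hspe1 to Hspd1 changed by 0.47 (SE 0.23, limma adjusted p = 0.258, and 0.0106 with the block).

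Few listed marker genes of islet cells stood at these promoters. The marker lists are short, and 2520 of the 25611 genes of the count table stood at a divergent peak. At a peak of 1 strand stood 5 of 7 beta, 1 of 4 alpha, 2 of 3 delta and 2 of 4 duct markers. No listed marker of beta, delta, gamma, acinar, duct, endothelial, mesenchymal or macrophage cells and none of 28 islet transcription factors or 18 listed genes of Gli, Glis or Hedgehog function stood at a divergent peak, although 17 of the 28 and 11 of the 18 stood at a peak of 1 strand. Irx2, a transcription factor of alpha cells, was the one exception. It had 23.0, 25.9 and 27.9 CPM in the labelled knockout, against 36.7, 28.8, 40.2 and 42.4 CPM in controls (log2 fold change -0.53, SE 0.15, edgeR adjusted p = 0.0329). It did not pass without controls 1, 3 or 4 or labelled knockouts 1 or 2 (up to 0.105), nor with the block (0.074), and its lncRNA neighbour Gm20554 was not called (-0.60, adjusted p = 0.284).

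Of the 216 called genes, 15 lay outside the pairs with both genes tested. Gad1, which makes the transmitter GABA, was 1 of these and was singled out after its values were seen. It had 2.15, 4.88 and 9.88 CPM in the labelled knockout, against 94.7, 72.3, 73.8 and 97.6 CPM in controls, a log2 fold change of -3.86 (SE 0.45, edgeR adjusted p = 0.00154). Its antisense partner Gad1os had 18 counts over all 7 libraries, and their spans overlap by 1228 bp at the peak chr2:70562290-70562489.

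The pairs nearest the limit of the rule were as follows. The farthest pairs inside were Tmem60/Phtf2 at 995 bp, and Ppil6/Smpd2 and Gm5643/Cbx5 at 997 bp. The nearest outside were Ubac2/1810041H14Rik and Hectd3/Urod at 1003 bp and Ankrd24/Sirt6 at 1004 bp. The log2 fold changes ran from -1.03 (Ppil6) to 0.67 (Phtf2) inside and from -0.32 (Hectd3) to 0.44 (Ubac2) outside. Of these, Ppil6 alone was called (edgeR adjusted p = 0.0296). Between 901 and 1000 bp there were 43 peaks, and between 1001 and 1100 bp 40.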

How the data were processed

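The members follow from positions alone, but the rule and the gene lists were proposed with earlier results of these data known. The authors deposited raw counts for each gene as whole numbers; per the file headers each row carried a symbol, an Entrez identifier and mm10 coordinates. The submitters' processing notes name STAR 2.5, featureCounts 1.5.0-p1 of Subread, Bowtie 1.2, cutadapt 1.2.1, Picard 1.110, HOMER 4.9.1 and bedtools 2.24.0, without roles, thresholds or a strand option. Peaks were 200 bp intervals with no score, from 1 ChIP library, and the input was not analysed here. Among the 25611 genes of the count table, 988 carried a symbol used before and were treated as genes of their own. A gene's 5′ end was its start or, on the minus strand, its end. Coordinates are 1-based.

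Genes were kept with filterByExpr, scaled with TMM factors and compared with edgeR 4.0.16 (quasi-likelihood test, R 4.3.3), with p-values adjusted by the Benjamini-Hochberg method over 14529 genes and called under 0.05. SEs of fold changes were derived from the F statistics (size of the change over root F), and levels are given as TMM-normalised CPM. The balance of a pair, log2 of (counts + 0.5) of one gene over the other, was tested with limma 3.58.1 over 1274 pairs. Both were also run on simulated counts with planted changes, with the genes of a pair drawn independently. The outcome is not reported here and is not used as support for any call. DESeq2 1.42.0 and limma-voom were alternatives. Total counts were 12099365 to 48054551 per library, and low counts limit the precision of genes near 1 CPM. No 2 libraries of a group were copies (chi-square per degree of freedom 23.4 to 95.4). Libraries of the same number deviated together from their group means (correlations 0.17, 0.12 and 0.12, all above 0.1). Replicate number was therefore used as a block in an alternative fit, a pairing found in the data and not stated in the labels. Labelled knockout 3 also correlated with control 4, of another number, at 0.16. The main fit has no block, so its SEs and adjusted p ignore any such pairing.

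Named were pairs with both genes called (in full for 10 same-direction and all opposite pairs), the 6 largest rises and 6 largest falls with a mean of at least 1 CPM among pairs with both genes tested, with their partners, the 6 pairs of smallest balance p, the 3 pairs of highest level in the lower gene, up to 4 called members per list, and the pairs nearest the 1 kb limit. Predicted genes were named as partners only. One same-direction pair is not reported here. Hspe1/Hspd1 was added as a textbook pair. Sequences were taken from RefSeq windows of GRCm38.p6. These covered 337 of the 1363 peaks in full.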

Additional observations from a re-analysis of the deposited data

Results flagged for a closer look

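Among the named genes, 5 had a control library far from the other 3. Rnf113a1 stood at 4.55 CPM in control 4, against 3.77 to 3.83 CPM in the other controls. Gm15663 stood at 3.84 CPM in control 3, against 6.44 to 6.83 CPM. D030025P21Rik stood at 0.801 CPM in control 1, against 0.365 to 0.431 CPM. Flcn stood at 74.2 CPM in control 3, against 55.7 to 58.3 CPM, and Pdia3 at 783 CPM in control 1, against 887 to 895 CPM. Chance marks about 1 in 20 groups in this way, and 80 genes were looked at. In each of the 4 genes that were called, every control stood on the same side of all labelled knockout libraries.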

How the results depend on the processing

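Of 57 called named genes, 33 kept their call and direction in all 17 alternative fits, and none of the 57 reversed in any of them. The counts of genes at divergent peaks (74 lower, 142 higher) were 21 and 241 with library size alone, 37 and 91 with acinar markers as a covariate, and 23 and 65 at an adjusted p under 0.01. DESeq2 gave 117 lower, and the replicate block gave 85 lower and 182 higher. Xist as a covariate gave 88 lower and 190 higher. Leaving out 1 library gave 48 to 95 lower and 94 to 140 higher. The 14 same-direction pairs were 6 with the acinar covariate, 2 at 0.01, 6 among head-to-head pairs, and 8 to 14 with 1 library left out. With the replicate block there were 17, and with Xist as a covariate 19. The 3 opposite pairs were 1 with library size alone, 1 with the acinar covariate, 1 among head-to-head pairs, 0 at 0.01, 7 with DESeq2, 5 with limma-voom, 5 with the replicate block, 5 with Xist as a covariate (added after seeing the data) and 0 to 3 with 1 library left out. The 51 pairs of changed balance were 127 with the replicate block, 16 at 0.01 and 22 to 64 with 1 library left out. The 1363 peaks were 993 within 500 bp, 1584 within 2 kb and 1066 head to head.

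Reversals were confined to 6 uncalled genes. Cdc27 stood at 0.07 with library size alone and -0.25 to 0.11 with 1 library left out. Npat stood at -0.00019 with RLE factors, -0.01 without a filter, -0.0003 with DESeq2, -0.01 with limma-voom, -0.06 with acinar markers, -0.0073 without the 10 most abundant genes and -0.03 with Xist. Trmt2a stood at -0.0032 with limma-voom and -0.0029 with the block, and Hspd1 at 0.1 with library size alone. With 1 library left out they ran from -0.13 to 0.12 (Npat), -0.06 to 0.15 (Trmt2a), -0.13 to 0.0084 (Hspd1), -1.34 to 0.13 (D030025P21Rik) and -0.03 to 0.1 (2310022A10Rik). With library size alone, Ikzf5, Grpel2, Armc5, Golga2, Sp3, Surf2, Cahm, Irx2 and Atm lost their calls, at adjusted p from 0.0558 to 0.354. With acinar markers as a covariate, 19 genes did, at 0.0578 to 0.148: Gm17634, Ikzf5, Grpel2, Anxa5, Msh3, Armc5, Tmtc2, Spa17, Sp3, Surf2, Surf1, Ncapg, Cahm, Myl4, Irx2, Ranbp1, Mrps7, Mrpl21 and Glis3. Limma-voom lost Ncapg (0.0529) and Irx2 (0.0584), leaving out the 10 most abundant genes lost Spa17 (0.0509), and testing without a filter lost Mrps7 (0.0524) and Mrpl21 (0.0512). Hspe1 passed with library size alone (0.0201) and with Xist (0.0184). Beside the genes and pairs named with it in the report, the replicate block changed no call of a named gene. The cause of these shifts was not tested. Depth limits genes near 1 CPM, and the single peak list has no replicate error.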
